A study of Mus musculus with 15 samples.

Results

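Pericytes and vascular smooth muscle cells are together called mural cells, the cells that wrap the outside of blood vessels, and 10 genes that mark them are described here across 15 arrays of mouse hippocampus. The genes were chosen by name, with earlier results of these data known: Pdgfrb, Rgs5, Kcnj8, Abcc9, Notch3, Mcam, Anpep, Acta2, Tagln and Myh11. All 10 were on the array, among 27962 gene names, and all 10 were among the 26116 genes that passed the filter on dim probes. They had 20 probes of the array's 41174, of which 19 passed that filter.

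The study measured hippocampal RNA while conditioned fear of a place was extinguished in male C57BL/6J mice. Mice received a foot-shock in a conditioning box and were later put back into the box once a day, 24 h apart, without the shock. The E1 group (5 arrays) was taken 1 h after the first of these trials, when freezing was still high by the design text. The ELF group (5 arrays) was taken 1 h after the trial at which freezing had declined, which the design text gives as trial 5. The control group (5 arrays) received no shock. The design text says that these mice were exposed to the box, whereas the source names call them naive, and the time from handling to dissection is not given for them. E1 and ELF mice therefore share the shock and differ in the number of re-exposures and in days since the shock. The labels call the 5 samples of a group biological replicates and give no age.

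Mural cells surround the endothelial tube. Pericytes sit on capillaries, are recruited and kept there by PDGF-B from endothelium acting on the receptor PDGFRB, and are needed for the blood-brain barrier. Smooth muscle cells ring arteries and arterioles, use the contractile proteins encoded by Acta2, Tagln and Myh11, and depend on the receptor NOTCH3 for their identity. In whole hippocampal RNA both are a minority, so that fewer cells of a type and less RNA per cell cannot be told apart in these data.

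Values are log2 levels, meaning log2 of the Cy3 intensity minus log2 of the 75th percentile of the same array. That percentile lay between 1445 and 2929 intensity units, and 83.5% to 97.2% of an array's spots were well above background. Arrays of a group correlated at 0.951 to 0.997. The neuron and hippocampus markers measured (11 genes, among them Prox1, Slc17a7 and Camk2a) had a mean log2 level of 3.53 ± 0.039 in control, 3.52 ± 0.086 in E1 and 3.49 ± 0.11 in ELF (SD, n = 5 each), so the markers of the labelled tissue were present. All control arrays but one were on slide 1, and no slide held both a control and an ELF array. Slide 2 held control 5 with E1 1 to 3, slide 3 held E1 4 and 5 with ELF 3 and 4, and slide 4 held ELF 1, 2 and 5.

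Each gene was read by 60-base probes, and 6 of the 10 genes had more than 1 usable probe. Since several results turn on which probe is read, the probes of the genes concerned are shown, 5′ to 3′ in the sense of the transcript as the array design gives them. They are given whole for 1 probe each of Acta2, Tagln and Mcam, and otherwise by their first 30 bases. Coordinates are those of the array design, on build mm7, and no annotation of exons or untranslated regions on that build was used here.
Rgs5 brightest probe, chr1:169669366-169669425, plus strand: agagtaccgctgtgttatctggacattctc
Rgs5 second probe, chr1:169671163-169671222, plus strand: gaatgaaggagaatcaaactgcatcttgct
Mcam brightest probe, chr9:44076783-44076842, plus strand: caggacagagagaaggtctactgttcatgg
Mcam second probe, chr9:44074728-44074787, plus strand: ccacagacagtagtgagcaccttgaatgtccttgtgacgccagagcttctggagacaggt
Tagln brightest probe, chr9:45888137-45888196, minus strand: ctttgaaggagacccagcccagcctctaca
Tagln second probe, chr9:45888956-45889015, minus strand: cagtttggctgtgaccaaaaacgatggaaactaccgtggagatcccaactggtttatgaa
Acta2 brightest probe, chr19:33949738-33952992, minus strand: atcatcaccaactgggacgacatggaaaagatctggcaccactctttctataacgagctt
Acta2 second probe, chr19:33942803-33942862, minus strand: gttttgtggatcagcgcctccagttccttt
The probes of a pair lay 1737 bases apart for Rgs5, 1995 for Mcam, 759 for Tagln and 6875 for Acta2. The brightest probe was the one nearer the 3′ end of the gene for Mcam and Tagln, and the one farther from it for Rgs5 and Acta2. The brightest Acta2 probe spans 3255 bases of the genome, more than its own length, so its parts lie in separate blocks of the gene. No probe of another gene on the array matched any of the 20 member probes at more than 36 bases, and none of the 20 was saturated on any array. That comparison set probes against probes without gaps, not against transcripts, so binding of transcripts of related genes was not tested. In control the brightest Acta2 probe had a mean log2 level of 2.87, and the other usable Acta2 probes had -0.048, -3.83 and -4.63.

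In the fit over all genes with limma, where a gene stands for its brightest probe and is called at a Benjamini-Hochberg adjusted p under 0.05, no marker was called in E1 against control. The background in that comparison was 0.188% of genes called in either direction. In ELF against control Rgs5 and Mcam fell, 2 of 10 markers, where 2.1% of all genes were called in either direction and 0.651% were called lower. In ELF against E1 no marker was called, beside a background of 0.00766%. At an unadjusted p under 0.05 the markers numbered 3 in E1 against control (background 13.1%), 5 in ELF against control (23%) and 2 in ELF against E1 (9.64%). These counts moved with single arrays: the share of all genes called in ELF against control was 19.6% without ELF 4, 8.08% without control 5 and 0% without control 2 or control 3. The comparisons with control use the same 5 control arrays, so their values stand side by side here and are not independent of each other.

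**Figure D1:**
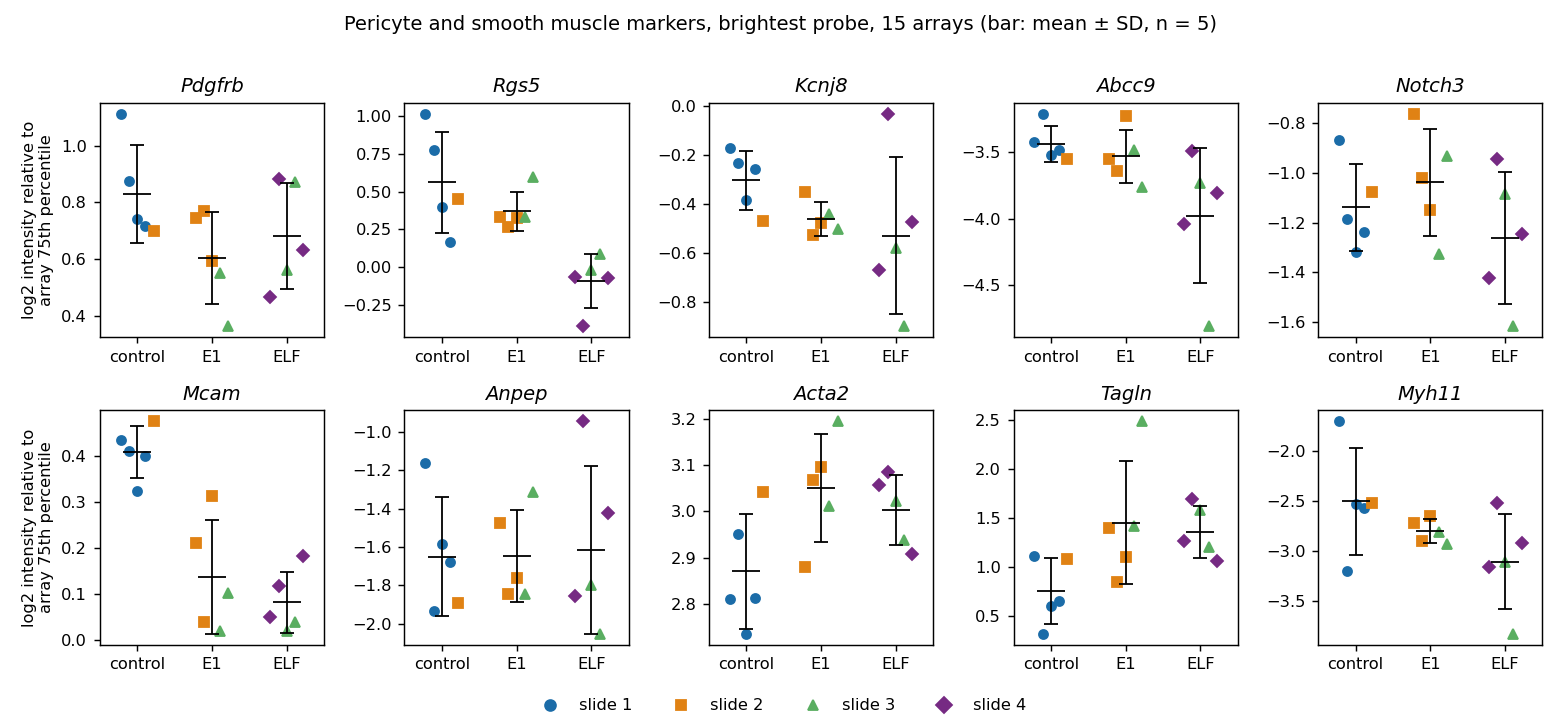
Log2 level (vertical axis, relative to the array's 75th percentile) of the 10 markers on each of the 15 arrays by group, brightest probe, with mean ± SD (n = 5) and the slide shown by symbol. All 5 ELF arrays lie below all 5 control arrays for Rgs5 and for Mcam, and for no other marker.

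Rgs5, a regulator of G-protein signalling used as a marker of pericytes, had log2 levels of 1.02, 0.78, 0.40, 0.17 and 0.45 on control arrays 1 to 5. It had 0.33, 0.26, 0.32, 0.33 and 0.60 on E1 arrays 1 to 5. On ELF arrays 1 to 5 it had -0.064, -0.39, -0.019, 0.083 and -0.072. Every ELF array was below every control and every E1 array, while E1 and control overlapped; over all genes, ELF was wholly below control in 2.24% and wholly below E1 in 0.942%. The ELF mean was 0.635 of the control mean as a fold (log2 difference -0.65, SE 0.15, n = 5 each, adjusted p = 0.0409 by limma). ELF against E1 gave -0.46 (SE 0.15, adjusted p = 0.373), and E1 against control gave -0.19 (SE 0.15, adjusted p = 0.615).

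The second Rgs5 probe varied less than the brightest in control and E1, and slightly more in ELF. The brightest probe had SDs of 0.34 in control, 0.13 in E1 and 0.18 in ELF. On the second probe the control arrays read -0.38 ± 0.09, the E1 arrays -0.58 ± 0.11 and the ELF arrays -1.06 ± 0.20 (log2 level, SD, n = 5 each). On ELF arrays 1 to 5 the second probe read -0.93, -1.30, -1.08, -1.18 and -0.80, all below the lowest E1 array at -0.68 and the lowest control array at -0.49. Its ELF difference from control was -0.68 (SE 0.10), with an adjusted p of 0.0177 in a limma fit over all 38456 kept probes, where 2.36% of probes were called. Control 1, which stood highest by the brightest probe, was at -0.27 on the second probe, beside -0.32 for control 5. The distance between both probes within an array differed by 0.027 between ELF and control (exact permutation test, two-sided, p = 0.857).

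The Rgs5 call by the brightest probe was lost when 1 array was left out in 10 of 15 fits (control 1, 2 or 3; E1 1, 2, 3 or 4; ELF 1, 2 or 5), with differences from -0.75 to -0.54 and adjusted p up to 0.109. The second probe lost its call in 2 of 15 such fits (control 2, adjusted p = 0.0613, and control 3, adjusted p = 0.0766), and its difference stayed between -0.75 and -0.62. With slide as a fixed block the differences were -0.58 (adjusted p = 0.334) and -0.76 (adjusted p = 0.112) for the brightest and the second probe. The median over all genes with that block was -0.22, and with slide as a random block no gene at all was called. With the E1 arrays left out of the fit, the adjusted p was 0.149 for Rgs5 and 0.128 for Mcam. Within slide 3, the only one with ELF and E1 arrays, the Rgs5 difference of ELF from E1 was -0.43 (2 arrays each, no test). The median over all genes there was -0.18. Within slide 2 the Rgs5 difference was -0.14 for E1 against the single control array, beside a median of -0.037 over all genes.

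Pdgfrb, the receptor through which PDGF-B holds pericytes on vessels, read 0.83 ± 0.17 in control, 0.60 ± 0.16 in E1 and 0.68 ± 0.19 in ELF as log2 levels (SD, n = 5 each). Its arrays overlapped in all 3 comparisons. The difference from control was -0.23 in E1 (SE 0.11, adjusted p = 0.427) and -0.15 in ELF (SE 0.11, adjusted p = 0.453). The 95% confidence interval of the ELF difference ran from -0.39 to 0.10, and that of Rgs5 from -0.97 to -0.34, so the intervals overlapped. Whether both genes differ in their change was not tested, and slide was not part of that fit. Leaving out single arrays moved that difference between -0.20 (without ELF 2) and -0.076 (without control 1).

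Kcnj8 and Abcc9 encode the pore (Kir6.1) and the regulatory subunit (SUR2) of the ATP-sensitive potassium channel of mural cells, and are neighbours on chromosome 6. Abcc9 had log2 levels of -3.42, -3.21, -3.52, -3.49 and -3.55 on control arrays 1 to 5, and -3.55, -3.64, -3.23, -3.49 and -3.76 on E1 arrays 1 to 5. On ELF arrays 1 to 5 it had -4.04, -3.49, -3.73, -4.81 and -3.81. All ELF arrays but ELF 2 were below every control array. The ELF difference from control was -0.54 (SE 0.20, adjusted p = 0.129), and without ELF 4 it was -0.33. The other usable Abcc9 probes gave -0.046 (SE 0.20) and 0.28 (SE 0.35), so the direction depended on the probe. The array design lists those probes under another transcript record than the brightest. They were dimmer, with mean log2 levels of -4.75 and -5.04 in control beside -3.44. The probe that gave 0.28 was not well above background on ELF 4. Kcnj8 overlapped between all groups, with -0.23 in ELF against control by its brightest probe (SE 0.13, adjusted p = 0.302) and -0.18 by its second (SE 0.14). The first of these was -0.35 without ELF 2 and -0.14 without ELF 4. ELF 4 was the lowest and ELF 2 the highest ELF array for both channel genes.

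Notch3, the receptor that smooth muscle cells and pericytes need to mature, had log2 levels of -1.14 ± 0.17 in control, -1.04 ± 0.21 in E1 and -1.26 ± 0.27 in ELF (SD, n = 5 each). Its differences of 0.10 (E1 against control, SE 0.14, adjusted p = 0.825) and -0.12 (ELF against control, SE 0.14, adjusted p = 0.611) were within the spread of the arrays. The ELF difference was -0.20 without ELF 2 and -0.036 without ELF 4.

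Mcam (CD146), an adhesion receptor of mural and endothelial cells, had log2 levels of 0.43, 0.41, 0.32, 0.40 and 0.48 on control arrays 1 to 5. It had 0.21, 0.039, 0.31, 0.018 and 0.10 on E1 arrays 1 to 5. On ELF arrays 1 to 5 it had 0.051, 0.12, 0.019, 0.038 and 0.18. All E1 and all ELF arrays were below the lowest control array, in E1 narrowly so (0.31 on E1 3 against 0.32 on control 3); over all genes E1 was wholly below control in 1.63%. The difference from control was -0.33 in ELF (SE 0.07, a fold of 0.797, adjusted p = 0.0418) and -0.27 in E1 (SE 0.07, a fold of 0.828, adjusted p = 0.117). ELF against E1 was -0.056 (95% confidence interval from -0.21 to 0.10).

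The second Mcam probe was not called. The control arrays read -2.77 ± 0.17 on it, the E1 arrays -2.67 ± 0.20 and the ELF arrays -2.81 ± 0.28 (log2 level, SD, n = 5 each), with overlap. It gave 0.11 (SE 0.14) for E1 and -0.035 (SE 0.14, adjusted p over all probes = 0.898) for ELF, both against control. The distance between both probes within an array changed by -0.38 in E1 against control (exact permutation test, two-sided, p = 0.0159, adjusted p = 0.0952 over the 18 such tests made for 6 genes and 3 comparisons), and changed by -0.29 in ELF (exact p = 0.0556, adjusted p = 0.2). The Mcam call in ELF was also lost with normexp background correction (-0.18, adjusted p = 0.249), with slide as a fixed block (-0.32, adjusted p = 0.26) and in 11 of 15 fits that left out 1 array (control 1, 2, 3 or 4; E1 1, 2 or 4; ELF 1, 2, 3 or 5), with differences from -0.35 to -0.31 and adjusted p up to 0.113.

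Anpep (CD13), an aminopeptidase on the surface of brain pericytes and of meningeal fibroblasts, differed from control by 0.0034 in E1 (SE 0.20, adjusted p = 0.996) and by 0.036 in ELF (SE 0.20, adjusted p = 0.931). Its log2 level ranged from -1.93 to -1.16 in control, from -1.84 to -1.31 in E1 and from -2.05 to -0.95 in ELF. The widest spread was thus within ELF, where ELF 2 was highest and ELF 4 lowest.

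**Figure D2:**
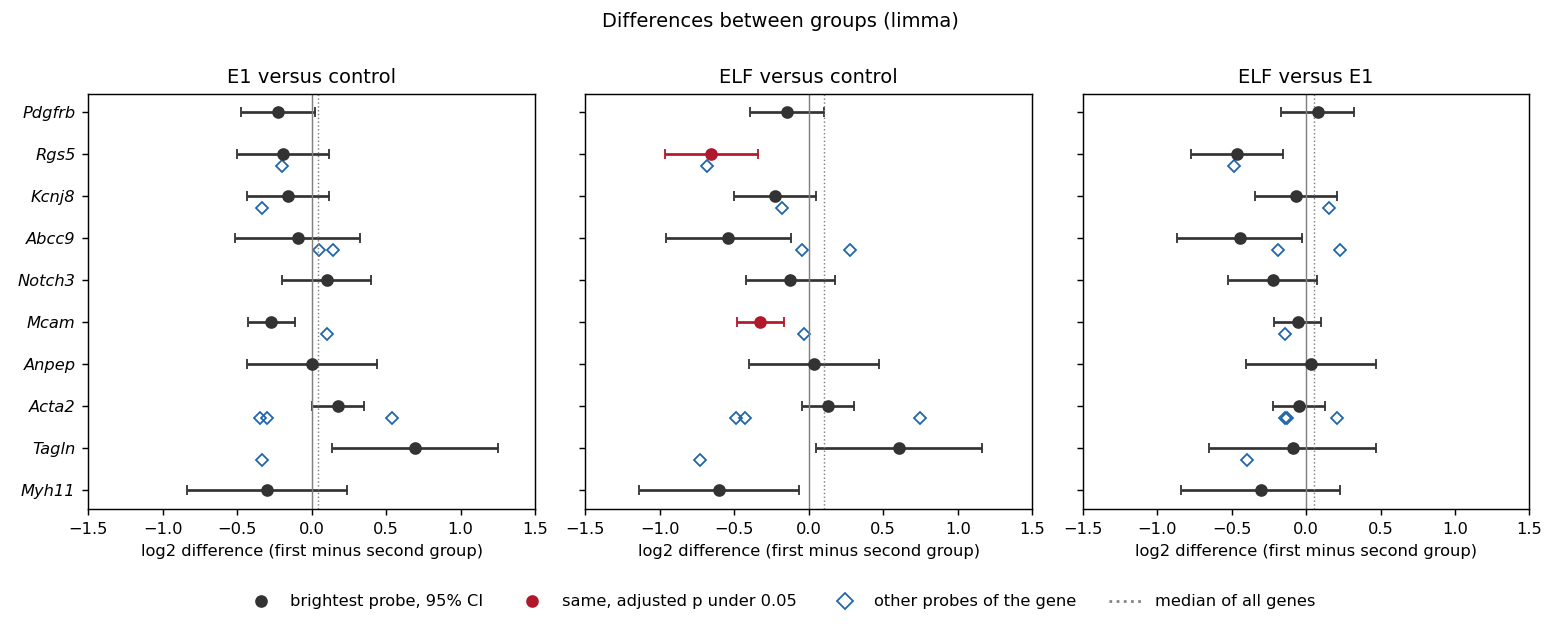
Log2 difference (horizontal axis, first minus second group) of each marker in the 3 comparisons by its brightest probe with 95% confidence interval, and by its other usable probes as open diamonds; the dotted line is the median of all genes. Rgs5 diamonds lie on the brightest probe, whereas against control the probes of Tagln, Acta2 and Abcc9 spread to both sides of 0. In E1 against control the Mcam probes did so too.

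For the contractile genes the differences varied by gene and by probe. Tagln (SM22, an actin-binding protein of smooth muscle) had log2 levels of 1.11, 0.32, 0.61, 0.65 and 1.08 on control arrays 1 to 5 by its brightest probe. It had 1.39, 0.84, 1.10, 1.42 and 2.49 on E1 arrays 1 to 5. On ELF arrays 1 to 5 it had 1.27, 1.69, 1.58, 1.21 and 1.06. The E1 and ELF groups lay mostly above control but overlapped it, with E1 5 highest of all 15 arrays. The difference was 0.69 in E1 (SE 0.26, adjusted p = 0.265; 0.44 without E1 5) and 0.60 in ELF (SE 0.26, adjusted p = 0.187), both against control.

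The labels state no pairing of arrays. Deviations of control and E1 arrays with the same replicate number correlated at r from 0.142 to 0.299, and arrays with unlike numbers were not compared. When the number was taken as a block in a limma fit of only those 10 arrays, Tagln rose in E1 (0.69, adjusted p = 0.0412). That fit called 12.1% of all genes, and 9.21% as higher. It was added after the data had been seen. In the fit of all 15 arrays with the same block Tagln was not called (adjusted p = 0.308). Within slide 2, Tagln was 0.032 higher in E1 than in the single control array, control 5.

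The second Tagln probe read the opposite sign. Its log2 level ran from -3.81 to -2.03 on control arrays, from -3.67 to -3.07 on E1 arrays and from -4.08 to -3.02 on ELF arrays, and its ELF difference from control was -0.73 (SE 0.28, adjusted p over all probes = 0.139). The distance between both probes within an array averaged 3.75 ± 0.45 for control, 4.78 ± 0.60 for E1 and 5.09 ± 0.35 for ELF (log2, SD, n = 5 each). All 5 ELF arrays had a larger distance than all 5 control arrays, a change of 1.34 (exact permutation test, two-sided, p = 0.00794, the smallest p that 5 against 5 arrays can give; adjusted p = 0.0952). In E1 the change was 1.03 (exact p = 0.0159, adjusted p = 0.0952). Neither change passed 0.05 after adjustment over the 18 tests, and the sign of the Tagln difference depended on the probe.

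Acta2, the smooth muscle actin, had log2 levels of 2.81, 2.95, 2.74, 2.81 and 3.04 on control arrays 1 to 5 and 2.88, 3.07, 3.096, 3.01 and 3.19 on E1 arrays 1 to 5. On ELF arrays 1 to 5 it had 3.06, 3.08, 3.02, 2.94 and 2.91. Groups overlapped, and the difference from control was 0.18 in E1 (SE 0.08, adjusted p = 0.369) and 0.13 in ELF (SE 0.08, adjusted p = 0.348). The other usable Acta2 probes gave ELF differences of -0.43 (SE 0.22), -0.49 (SE 0.24) and 0.75 (SE 0.38), none called with all arrays, and the fifth probe was not well above background on any array. Control 1 was highest of all 15 arrays on the probes that gave -0.43 and -0.49, at 0.73 and -2.85, and without it they gave -0.23 and -0.25. On the probe that gave 0.75, ELF 4 read -5.61 and the other ELF arrays -3.74 to -3.13. Without ELF 4 that probe gave 1.18 and was called (adjusted p = 0.0105 by limma over all probes), in a fit that called 18.6% of all probes.

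Myh11, the heavy chain of smooth muscle myosin, had log2 levels of -1.70, -3.21, -2.53, -2.57 and -2.52 on control arrays 1 to 5. It had -2.72, -2.91, -2.65, -2.81 and -2.93 on E1 arrays 1 to 5, and -3.16, -2.52, -3.11, -3.83 and -2.92 on ELF arrays 1 to 5. The control group alone spanned more than the difference between group means. ELF against control was -0.60 (SE 0.25, adjusted p = 0.172), and E1 against control was -0.30 (SE 0.25, adjusted p = 0.659). Without control 1 these differences were -0.40 and -0.098.

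**Figure D3:**
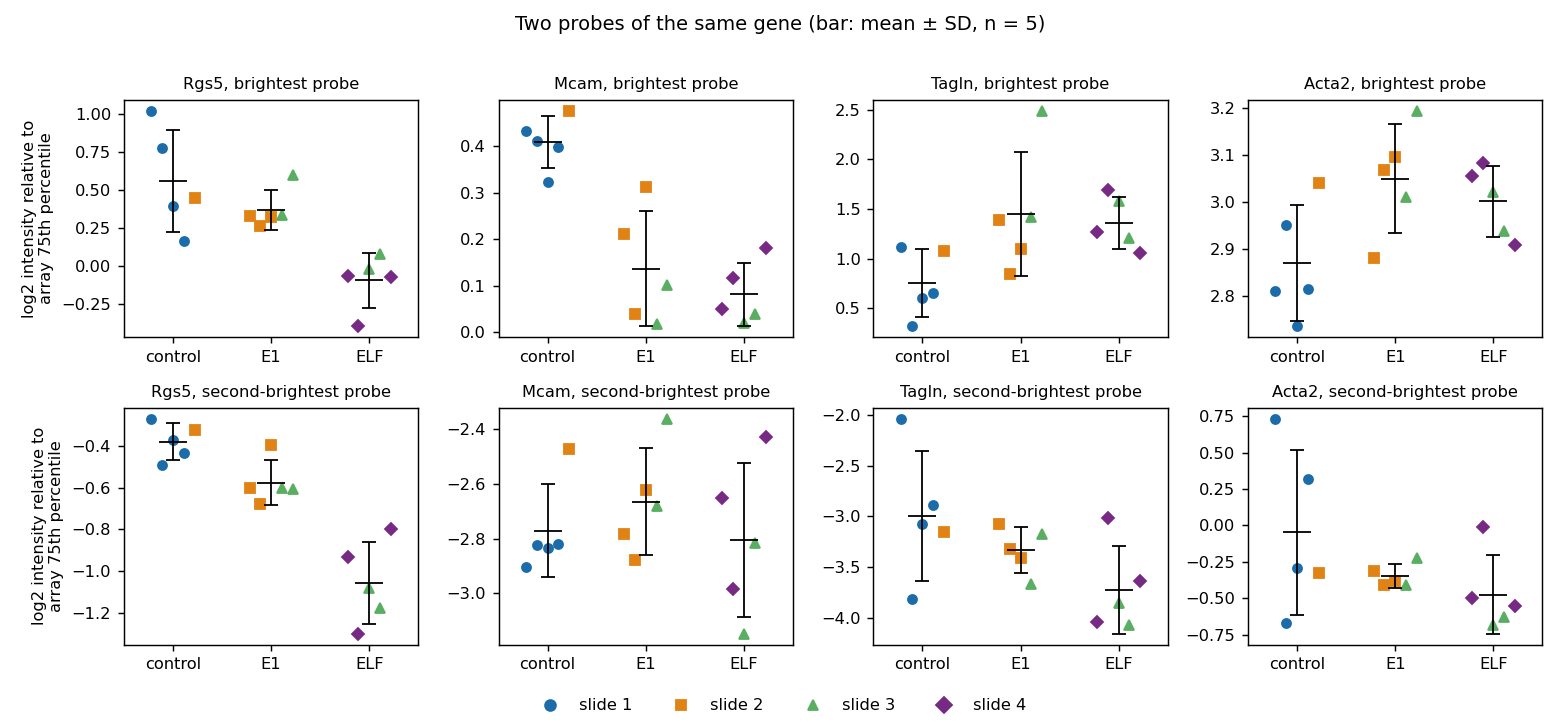
Log2 level (vertical axis) by array and group for the brightest and the second-brightest probe of Rgs5, Mcam, Tagln and Acta2, with mean ± SD (n = 5) and slide by symbol. Both Rgs5 probes fall to ELF, the Mcam difference is seen on the brightest probe, and the Tagln probes go opposite ways.

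Over the 10 markers the median log2 difference was -0.13 in E1 against control, -0.19 in ELF against control and -0.080 in ELF against E1. The medians over all genes in the same order were 0.043, 0.099 and 0.051. Differences were below 0 for 6, 7 and 8 of the 10 markers, against 41.5%, 35.2% and 39.6% of all genes. Counted by probe, 11, 14 and 14 of the 19 usable probes were lower in these comparisons. The sign depended on the probe for 4 of the 6 genes with several probes in E1 against control and for 3 of them in ELF against control.

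Further markers of the same cells and genes of the same pathways were read in the same fit. None of the 17 further pericyte markers measured was called in any comparison with all arrays and no block. In each comparison with control 9 of them were above 0 (median 0.061 in E1 and 0.020 in ELF). Those with the smallest p in ELF against control were both below 0. Without ELF 4, 3 of the 17 were called in ELF against control (2 higher, 1 lower), in a fit that called 19.6% of all genes. Without control 5, 1 was called lower there, where 8.08% of all genes were called. With slide as a fixed block, 12 of the 17 were below 0 in ELF against control (median -0.30, beside -0.22 over all genes), none called. In ELF against E1 that block gave 3 called lower, where 19.3% of all genes were called. Foxf2, a transcription factor of brain pericytes, gave -0.73 in E1 (adjusted p = 0.168) and -0.83 in ELF (adjusted p = 0.0644) against control, and Zic1 gave -0.73 and -0.76 (adjusted p = 0.336 and 0.171). None of the 20 further smooth muscle markers was called either with all arrays and no block. In each comparison with control 10 were above 0 (median -0.0059 in E1 and -0.013 in ELF). Without control 5, 3 were called higher in E1 and 1 in ELF, where 4.28% and 8.08% of all genes were called. Without ELF 4, 1 was called higher in ELF. With slide as a fixed block, 17 of the 20 were below 0 in ELF against control (median -0.23), none called, and 1 was called lower in ELF against E1. Myocd, the coactivator that drives contractile genes, gave 0.62 in E1 (adjusted p = 0.218) and 0.63 in ELF (adjusted p = 0.11), and Tpm2, a tropomyosin, gave -0.22 and -0.63 (adjusted p = 0.738 and 0.135).

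Of 20 genes of the PDGF and Notch pathways, 1 rose in both comparisons with control and 1 fell in ELF. Nrarp, a target and feedback inhibitor of Notch signalling, rose by 0.51 in E1 (SE 0.09, adjusted p = 0.0413) and by 0.40 in ELF (SE 0.09, adjusted p = 0.0423). Notch4, the Notch receptor of endothelium, fell by 0.56 in ELF (SE 0.11, adjusted p = 0.0327). When single arrays were left out, a gene of this list was called higher in 3 of 15 fits in each of these comparisons, and a gene was called lower in ELF in 9 of 15. None of the 11 channel partners and RGS relatives measured was called. Rgs16 gave 0.68 in E1 (adjusted p = 0.0613) and 0.35 in ELF (adjusted p = 0.166), with every E1 and ELF array above every control array (over all genes 2.08% in E1 and 2.5% in ELF), and Rgs2 gave 0.10 and 0.27 (adjusted p = 0.782 and 0.193).

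Markers of endothelium, the layer next to pericytes, fell in the same comparisons. Of 16 measured, 2 fell in E1 (Cldn5, -0.94, and Kdr, -0.87) and 9 fell in ELF (Abcb1a, Kdr, Cldn5, Flt1, Ptprb, Slco1c1, Eng, Emcn and Vwf, from -0.64 to -1.66), and none rose. The mean log2 level of this list ranged from -0.86 to -0.22 in control, from -1.20 to -1.10 in E1 and from -1.51 to -1.21 in ELF. Its median difference in ELF was -0.72, beside -0.19 for the mural markers. In E1 it was -0.44, and within slide 2 it was -0.23. Control 5, the single control array of that slide, lay 0.30 below the other control arrays by the median of the list. With slide as a fixed block no endothelial marker was called in either comparison with control, and the ELF median was -0.56, beside -0.22 over all genes. Without single arrays 0 to 5 were called lower in E1 and 0 to 10 in ELF, with 0 in ELF without control 2 or control 3. Those fits called 0.0306% to 4.28% of all genes in E1 and 0% to 19.6% in ELF. Meningeal and fibroblast markers (12 measured) ranged in mean level from -0.48 to 0.37 in control, -0.59 to -0.09 in E1 and -0.62 to 0.24 in ELF, and 1 of them, Igf2, fell in ELF (-0.90, adjusted p = 0.0477). A gene of that list was called lower in 3 of 15 fits without single arrays. Choroid plexus markers (10 measured) had none called, with Prlr at -1.42 (adjusted p = 0.0734) and Sostdc1 at -1.27 (adjusted p = 0.0839) in ELF against control. ELF 3 stood apart for this list, with a mean log2 level of -2.61 beside 0.38 to 0.76 on the other ELF arrays and 1.00 to 1.71 on control arrays. The median difference in ELF was -1.40 with ELF 3 and -0.70 without it. Without ELF 4 the number called lower was 5, and without control 5 it was 1, in fits that called 19.6% and 8.08% of all genes. The part of these cell types in the mural values was not tested.

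Within groups, the markers differed in how closely they followed the meningeal list from array to array. After each group's mean was removed, Anpep correlated with the mean of the 12 meningeal and fibroblast markers at Pearson's r = 0.924 (permutation within groups, p = 6e-05, adjusted p = 0.0012 over 20 relations) and Spearman's rho = 0.893 (permutation, adjusted p = 0.0076) over 15 arrays. Without ELF 2 and control 1, the arrays farthest out, r was 0.858. The permutation moved arrays across slides within a group, so gaps between slides were not taken out of its p. Within ELF, slide 4 lay above slide 3 by 0.52 for Anpep and by 0.60 for Myh11. Myh11 gave r = 0.772 (permutation, adjusted p = 0.0351) and rho = 0.621 (permutation, adjusted p = 0.119), and r = 0.571 without those arrays. Rgs5 gave r = -0.078 (permutation, adjusted p = 0.819) and Mcam r = 0.22 (permutation, adjusted p = 0.466). These 20 relations, with the endothelial list as the other one, were chosen after the data had been seen. Such correlations were not particular to the meningeal list. With the further pericyte markers r was 0.892 for Anpep, 0.847 for Myh11, -0.165 for Rgs5 and 0.299 for Mcam. With the further smooth muscle markers it was 0.863, 0.86, -0.176 and 0.324 in the same order, and these values were not tested.

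**Figure D4:**
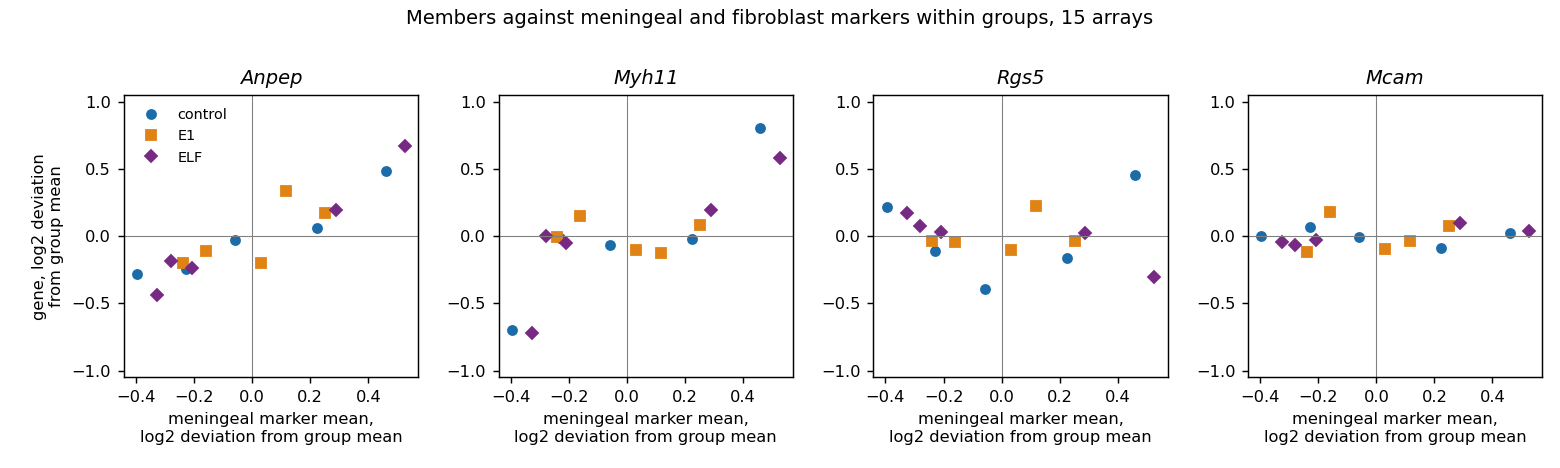
Deviation of a marker from its group mean (vertical axis, log2) against that of the mean of 12 meningeal and fibroblast markers (horizontal axis, log2) on 15 arrays. Pearson's r is 0.924 for Anpep, 0.772 for Myh11, -0.078 for Rgs5 and 0.22 for Mcam.

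The same few arrays stood at the ends for most markers. Control 1 was the highest control array for 7 of 10 markers. ELF 2 was the highest ELF array for 8 of 10 and the lowest for Rgs5. ELF 4 was the lowest ELF array for 5 (Kcnj8, Abcc9, Notch3, Myh11 and Anpep). Of all 15 arrays, ELF 4 also had the fewest spots well above background (83.5%) and the highest 75th percentile (2929). E1 5 had the lowest percentile (1445), with 85.2% of spots well above background. That share was 96% on ELF 2 and 92.2% on control 1. The part of these array properties in the marker values was not tested. Of the 45 pairs of markers, 33 correlated above 0 within groups (median r = 0.24, range -0.34 to 0.78), with the closest pairs Kcnj8 with Anpep (0.78), Kcnj8 with Abcc9 (0.78) and Myh11 with Anpep (0.78). These are descriptions over 15 arrays that share slides and scaling.

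Among all other genes, those most like the mean of the standardised markers over the 15 arrays were Trim47 (r = 0.912), Gpr116 (r = 0.911), BC020535 (r = 0.903), 2310046K01Rik (r = 0.892) and Gimap1 (r = 0.888). By marker, the closest genes were BC031781 (r = 0.921) and Notch4 (r = 0.893) for Rgs5, Tpm2 (r = 0.954) for Myh11, Nt5e (r = 0.927) and Abcc4 (r = 0.909) for Pdgfrb, and Sphk1 and Aldh1a2 (both r = 0.943) for Anpep. For Mcam the closest was the transcript AK032921 (r = 0.84). Likeness here includes the differences between groups and is a description with no test.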

How the data were processed

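Hippocampal RNA was measured on 15 single-colour Cy3 arrays (5 control, 5 E1, 5 ELF). Per the file headers, Agilent Feature Extraction 9.5.3.1 gave for each of 45018 spots an intensity that was background-subtracted and detrended within the array, with flags for spots well above background, saturated or outlying. The value table that the authors deposited is on a log2 scale, with array medians from 8.75 to 8.97, in the direction of the scanner intensity (r at least 0.996). Their normalization and centring are not given in the sources used here, and the table served as an alternative. Agilent Feature Extraction and limma are the tools in the submitters' processing notes.

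From these files, 1639 control spots and outlier spots were left out, log2 intensity was set relative to each array's 75th percentile, spots of a probe were averaged, and probes well above background on at least 5 of 15 arrays were kept (38456). The brightest probe stood for a gene, and every member probe was also tested in a fit over all kept probes. Groups came from the sample labels. limma 3.58.1 in R 4.3.3 compared the 3 groups in 1 fit (lmFit, eBayes, two-sided, Benjamini-Hochberg over all genes, threshold 0.05), after a check on simulated data. Distances between probes were tested by exact permutation over arrays, a test chosen after the data had been seen.

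Same-numbered control and E1 arrays deviated together (r from 0.142 to 0.299 in all 5 pairs). Control and ELF (-0.435 to 0.311) and E1 and ELF (-0.40 to 0.17) did so less regularly. The labels state no pairing, and these r were not set against those of arrays with unlike numbers. The main fit used no pairing, and replicate number was a block in alternative fits only. All arrays were scanned on 1 day, so slide was the only batch tested, as a fixed block, as a random block and within slides. Alternatives were background correction, scaling, dim-probe filters, the authors' values, other probes, both blocks, fewer arrays and a trended prior. The fits of the further lists with slide as a block or without single arrays were added after the data had been seen.

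Named were all 10 members with every probe and, from each further list, every gene past the threshold and the 2 with the smallest p in ELF against control, plus the genes closest in pattern; a gene that this rule names is not reported here. The members and lists were chosen with earlier results of these data known. Symbols are the array design's, all 10 of which match RefSeq. Signal over background and the number of arrays limit precision.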

Additional observations from a re-analysis of the deposited data

Results flagged for a closer look

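Of 30 groups of 5 arrays checked (10 markers, 3 groups), 1 had an array far from the others, and chance alone marks about 1 group in 20. Rgs5 on E1 5 stood at a log2 level of 0.60, with the next E1 array at 0.33. The second Rgs5 probe on the same array stood at -0.61, inside the E1 range of -0.68 to -0.39. The gap between E1 5 and the other E1 arrays is thus seen on the brightest probe and not on the second.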

How the results depend on the processing

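The number of markers called in ELF against control was 2 as reported and 0 to 2 when single arrays were left out. It was 4 with quantile normalization (Abcc9, -0.70, adjusted p = 0.0238, and Myh11, -0.72, adjusted p = 0.041, joined). It was 1 with normexp correction, 1 with the mean of a gene's probes and 1 with the second-brightest probe. It was 0 with slide as a fixed block, 0 with slide as a random block, 0 with the replicate block and 0 with only the 2 groups compared; the last called 0 of all genes. In E1 against control it was 0 as reported and 1 (Tagln) with the replicate block on the control and E1 arrays only. Abcc9 was also called with a median shift (-0.64, adjusted p = 0.0432) and in the authors' values (-0.49, adjusted p = 0.0302). The median over markers in ELF against E1 was -0.31 with slide as a fixed block, beside -0.18 over all genes. In ELF against E1 that fit called 19.3% of all genes, 86.1% of them lower, and no marker. Without single arrays the median over markers ran from -0.16 to -0.084 (E1 against control), -0.27 to -0.14 (ELF against control) and -0.18 to -0.048 (ELF against E1).

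Signs turned for the following, and the cause was not tested. With slide as a fixed block the medians over all genes were -0.037 in E1 against control, -0.22 in ELF against control and -0.18 in ELF against E1. With slide as a fixed block, E1 against control was 0.080 for Abcc9, -0.027 for Acta2, 0.016 for Kcnj8 and 0.0017 for Pdgfrb, ELF against control was -0.15 for Acta2, -0.15 for Anpep, 0.26 for Pdgfrb and -0.53 for Tagln, and ELF against E1 was -0.35 for Anpep. With slide as a random block, Abcc9 was 0.024 in E1, and Anpep was -0.019 in ELF against control and -0.18 against E1. With the second probe, E1 differences were 0.14 (Abcc9), -0.30 (Acta2), 0.11 (Mcam) and -0.34 (Tagln), ELF differences were -0.43 (Acta2) and -0.73 (Tagln), and ELF against E1 was 0.16 (Kcnj8). With the mean of probes, Abcc9 was 0.033 in E1, Acta2 was -0.0089 and Tagln -0.063 in ELF, and Kcnj8 was 0.043 in ELF against E1. With normexp, Mcam was 0.064 in ELF against E1. Anpep was -0.018 (quantile), -0.041 (median shift) and -0.036 (authors' values) in E1, -0.0046, -0.065 and -0.053 in ELF, and -0.024 (median shift) and -0.017 (authors' values) in ELF against E1. Without single arrays Anpep ran from -0.080 to 0.13, -0.13 to 0.16 and -0.13 to 0.14 in the 3 comparisons, and in ELF against E1 Kcnj8 ran from -0.19 to 0.022 and Tagln from -0.24 to 0.17.

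The all-gene count in ELF against control was 548 as reported, 1713 with quantile normalization, 1209 with a median shift, 1587 in the authors' values, 907 over probes, 215 with the replicate block, 85 with slide as a fixed block and 0 with it as a random block. In E1 it was 49, and 427, 299, 240, 40, 12, 4 and 0 in the same order, with 84 under a trended robust prior. Lower genes were 31% of those called in ELF, and 50.8% in the authors' values; in E1 they were 28.6%, and 17.8% with quantile normalization and 13.4% with a median shift. The median shift moved the median of all genes in ELF from 0.099 to -0.0021, and Rgs5 to -0.76 and Mcam to -0.43. No slide joins control and ELF arrays, so slide and group are told apart only through E1.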

Other observations

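Astrocyte, microglia, oligodendrocyte and neuron markers had no gene called in any of the 3 comparisons with all arrays. Among 8 astrocyte markers, 5 were above 0 in ELF against control (median 0.090, beside 0.099 over all genes, with Aqp4 lowest at -0.28). Of these S100b, a calcium-binding protein of astrocytes, was 0.32 higher in ELF than in control (SE 0.08, adjusted p = 0.0503 by limma), with every ELF array above every control array as in 2.5% of all genes, and Aldh1l1, a folate enzyme, was 0.34 higher (adjusted p = 0.0853). Among 8 microglia markers, 6 were above 0 (median 0.24), of which Trem2, a lipid receptor of microglia, was 0.46 higher (SE 0.12, adjusted p = 0.0529) and Tmem119 0.33 higher (adjusted p = 0.101). Among 7 oligodendrocyte markers, 5 were below 0 (median -0.017), and the myelin gene Mobp, against the sign of most, gave 0.27 (adjusted p = 0.207). Among 11 neuron and hippocampus markers, 6 were below 0 (median -0.057). Syt1, a synaptic vesicle protein, gave -0.31 (adjusted p = 0.113) and Calb1 was 0.23 higher (adjusted p = 0.147).

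Within groups, the markers were also set against the mean of the endothelial list over 15 arrays, as 10 of the 20 relations adjusted together. The same permutation was used, which moved arrays across slides. Pearson's r was above 0.5 for Myh11 (0.74, permutation adjusted p = 0.0797), Anpep (0.67, adjusted p = 0.0476), Pdgfrb (0.57, adjusted p = 0.0971), Kcnj8 (0.56, adjusted p = 0.0476) and Notch3 (0.52, adjusted p = 0.0945). By Spearman's rho none of these passed (permutation, adjusted p from 0.0877 to 0.285). Without control 1 and control 5, the arrays farthest out, r was 0.70 for Myh11, 0.60 for Anpep, 0.28 for Pdgfrb, 0.66 for Kcnj8 and 0.56 for Notch3. Rgs5 gave r = 0.41 (permutation, adjusted p = 0.466), and -0.21 without those arrays.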
